A study of Saccharomyces cerevisiae with 4 samples.

Results

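Heat shock was compared with growth at 30 °C in budding yeast cells, Saccharomyces cerevisiae strain DPY438. The labels give its genotype as Hsf1-AA, meaning that the transcription factor Hsf1 can be anchored away. In both libraries the cells had received 1 µM rapamycin for 45 min. The heat-shocked cells spent 10 min at 39 °C and their counterparts stayed at 30 °C. These are the 2 rapamycin libraries out of 4 in the series, chosen by their labels alone. The other 2 are the same strain without rapamycin, again 10 min at 39 °C and at 30 °C. In the usual form of the method rapamycin makes a tagged nuclear protein bind a tagged ribosomal protein that passes through the nucleus, and is carried out with it. The comparison therefore asks which transcripts differ in heat shock when Hsf1 is meant to be away from its genes. The labels do not say whether the drug came before the heat, and name neither the anchor protein nor the TOR1 and FPR1 alleles of the strain. Each group held 1 library, so no ratio here has a replicate check or a p-value.

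Yeast cells answer heat with several programs at once. Hsf1 drives genes of cytosolic chaperones from heat shock elements. The related factors Msn2 and Msn4 drive a wide set of genes for reserve carbohydrates, oxidant defence and membrane protection from stress response elements, under the control of protein kinase A. At the same time genes for making ribosomes, many of which carry PAC and RRPE elements, are turned down through protein kinase A and the TORC1 kinase.

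Levels are the deposited normalised read counts, and a ratio is the log2 of (value + 1) in heat shock minus the same at 30 °C. The table lists 7126 features, and the 5642 whose 4-library mean reached 5 entered the comparison. POX1 lay just outside this limit with a mean of 4.97, and YKR073C just inside with 5. The libraries held 2254007 reads in heat shock and 3231228 at 30 °C with rapamycin, and 2026880 in heat shock and 1561620 at 30 °C without. Transfer RNA took 10.1% of the reads in heat shock and 18.3% at 30 °C with rapamycin, and protein-coding genes took 66.5% and 59.5% of the same libraries. A difference of 2-fold, 1 on the log2 scale, is a rule of size and not a test. PXA1 lay just past it and NPL4, at 1.998-fold, just short. Intervals are exact 95% intervals of the read ratio and cover counting error only, and without molecular identifiers some reads may be copies of 1 molecule.

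With rapamycin present, 1034 features were at least 2-fold higher in heat shock, 18.3% of those compared, and 825 were at least 2-fold lower, 14.6%. Past 4-fold lay 356 features upwards, 6.31%, and 205 downwards, 3.63%. The counting interval lay above 1 for 1003 of the 1034 and for 810 of the 825. Without rapamycin, 19.8% of features were higher by that rule and 19.3% lower. The features higher in both arms numbered 723, which is 69.9% of those higher with rapamycin and 64.8% of those higher without. The features lower in both numbered 621, which is 75.3% of those lower with rapamycin and 57.0% of those lower without. When each library was divided by its own total instead, the median ratio of all features moved to 0.40 and the counts to 1581 higher and 434 lower, or 78.5% higher among those past 2-fold in place of 55.6%.

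Promoter sequences of 7 genes are shown because they hold the short elements that are counted across all promoters below. Each stretch is 200 bases long and lies within the 500 bases before the annotated start, on the coding strand, read by coordinates from the R64 genome (the sacCer3 assembly) of RefSeq. In the next 4 the capitals mark the stress response element AGGGG and the heat shock element, here the units GAA, TTC and GAA in turn with any 2 bases between them, each on either strand.
CTT1, chrVII:654163-654362, plus strand: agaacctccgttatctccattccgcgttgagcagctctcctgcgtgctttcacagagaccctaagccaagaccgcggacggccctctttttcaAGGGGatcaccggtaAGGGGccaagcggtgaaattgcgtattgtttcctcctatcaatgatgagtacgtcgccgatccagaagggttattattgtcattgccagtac
PGM2, chrXIII:477816-478015, minus strand: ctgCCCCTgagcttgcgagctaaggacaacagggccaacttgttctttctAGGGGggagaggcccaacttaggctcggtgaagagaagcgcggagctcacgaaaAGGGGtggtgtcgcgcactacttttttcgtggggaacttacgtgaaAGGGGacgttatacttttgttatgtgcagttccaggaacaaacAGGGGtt
HSP42, chrIV:806306-806505, plus strand: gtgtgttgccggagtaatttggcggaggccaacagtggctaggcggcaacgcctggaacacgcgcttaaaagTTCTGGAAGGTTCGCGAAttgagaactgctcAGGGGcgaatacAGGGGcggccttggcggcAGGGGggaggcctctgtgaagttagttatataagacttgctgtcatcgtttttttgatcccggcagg
BTN2, chrVII:772012-772211, plus strand: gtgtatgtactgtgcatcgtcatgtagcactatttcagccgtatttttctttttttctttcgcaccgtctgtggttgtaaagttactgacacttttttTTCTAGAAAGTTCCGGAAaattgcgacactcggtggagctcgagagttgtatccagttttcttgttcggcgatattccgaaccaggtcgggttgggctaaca

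In the other 3 the capitals mark GATGAG, the core of the PAC element, and AAAATTTT, the core of the RRPE element.
ALB1, chrX:189516-189715, plus strand: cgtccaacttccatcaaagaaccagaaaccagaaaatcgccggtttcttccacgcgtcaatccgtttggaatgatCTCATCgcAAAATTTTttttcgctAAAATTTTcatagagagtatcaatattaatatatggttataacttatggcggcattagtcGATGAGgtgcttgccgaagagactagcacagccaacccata
EBP2, chrXI:125558-125757, plus strand: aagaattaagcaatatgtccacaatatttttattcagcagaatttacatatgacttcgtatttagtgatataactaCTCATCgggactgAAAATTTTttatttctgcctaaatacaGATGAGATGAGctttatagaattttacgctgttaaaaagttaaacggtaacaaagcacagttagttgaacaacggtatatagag
NSR1, chrVII:807737-807936, minus strand: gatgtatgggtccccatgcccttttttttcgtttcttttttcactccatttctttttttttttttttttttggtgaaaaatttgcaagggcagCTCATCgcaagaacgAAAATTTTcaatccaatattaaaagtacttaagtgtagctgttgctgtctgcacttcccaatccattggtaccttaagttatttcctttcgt

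The first pair, CTT1 and PGM2, held 3 and 5 copies of AGGGG within 500 bases, 2 and 5 of them in the stretch shown, and no match to the heat shock element. HSP42 held 3 copies beside 2 overlapping matches to the heat shock element, and BTN2 held 2 such matches and no AGGGG. ALB1, EBP2 and NSR1 held 2, 3 and 1 copies of GATGAG and 2, 1 and 1 copies of AAAATTTT. These genes were chosen for display after their ratios were known.

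Genes of a hexose transporter, a catalase and a phosphoglucomutase stood among the highest in heat shock with rapamycin. HXT5, a hexose transporter of slowly growing cells, had 848 normalised reads in heat shock and 7.11 at 30 °C with rapamycin, and 831 in heat shock and 21.45 at 30 °C without. CTT1, the cytosolic catalase, had 5441 in heat shock and 114 at 30 °C with rapamycin, and 4942 in heat shock and 124 at 30 °C without. PGM2, the major phosphoglucomutase, had 7276 in heat shock and 292 at 30 °C with rapamycin, and 7874 in heat shock and 192 at 30 °C without. All 3 stood high in both heat shock libraries and low in both libraries at 30 °C. With rapamycin HXT5 was 105-fold higher (60.3 to 277), CTT1 47.4-fold (40.2 to 57.5) and PGM2 24.8-fold (22.3 to 27.9). Without rapamycin the same folds were 37.0, 39.4 and 40.9. With HXT5 and CTT1, the 12 highest ratios were those of PAI3, PHM7, GND2, FMP48, GAC1, FMP45, FMP33, SOL4, BDH2 and the unmatched feature YLR252W, and PGM2 ranked below them. Apart from PAI3 these 9 others lay between 32.6-fold higher, for BDH2, and 41.1-fold higher, for PHM7. The folds of FMP33, 34.3 (15.7 to 230), and YLR252W, 37.0 (15.5 to 479), rested on 3 and 2 reads at 30 °C. PAI3, an inhibitor of a vacuolar protease, had 44 reads in heat shock and none at 30 °C, which makes it at least 15.9-fold higher against a floor of 3 reads per library.

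Trehalose is made from glucose phosphates by a complex of synthase and phosphatase subunits and broken down by trehalases. Of the 10 genes of trehalose metabolism 9 passed 2-fold upwards with rapamycin and none downwards, where 18.3% and 14.6% of all features did. Their median ratio was 2.57, against 0.00 over all features compared. TPS2, the phosphatase subunit, had 7809 in heat shock and 560 at 30 °C with rapamycin, and 7272 in heat shock and 545 at 30 °C without. TSL1, a regulatory subunit, had 9762 in heat shock and 592 at 30 °C with rapamycin, and 12376 in heat shock and 460 at 30 °C without. Both stood high in the heat shock libraries of either arm. TPS2 was 13.9-fold higher with rapamycin (12.9 to 15.2) and TSL1 16.5-fold (15.3 to 17.9). The genes of breakdown were higher too, with ATH1, the acid trehalase, at a ratio of 2.94 and NTH2, a neutral trehalase, at 2.27. PGM1, the minor phosphoglucomutase, was the 1 member short of 2-fold, at 0.46.

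Glycogen metabolism behaved likewise, with 10 of 13 genes at least 2-fold higher, none lower and a median of 2.75. Of all features 18.3% were higher and 14.6% lower. GAC1, which directs protein phosphatase Glc7 to glycogen synthase, had 835 in heat shock and 22.2 at 30 °C with rapamycin, and 393 in heat shock and 17.2 at 30 °C without. It was 36.01-fold higher with rapamycin (25.3 to 58.4) and 21.7-fold higher without. Synthesis and breakdown genes moved together here also. GLC3, the branching enzyme, was 10.1-fold higher (8.65 to 12.1) and GPH1, glycogen phosphorylase, 10.8-fold (9.90 to 11.9). PIG1, at a ratio of -0.30, GLG2, at 0.48, and GLC8, at 0.92, stayed short of 2-fold.

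Of 15 hexose transporter and sugar kinase genes 9 passed 2-fold upwards and none downwards, where 18.3% and 14.6% of all features did. Their median was 2.06. HXK1, a hexokinase, was 10.2-fold higher (9.52 to 11.1), with 6846 normalised reads in heat shock and 667 at 30 °C. HXT7, a high-affinity transporter, had a ratio of 2.92, but 95.1% of the 50-base windows of its near-identical neighbour HXT6 also occur in HXT7, so reads of the pair cannot be told apart with certainty. HXT1, the low-affinity transporter of glucose-rich growth, had 82.6 in heat shock and 163 at 30 °C, a ratio of -0.97.

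The pentose phosphate pathway split within the list. Of its 14 genes 6 were at least 2-fold higher and 1 lower, with a median of 0.08, where 18.3% and 14.6% of all features were. The 4 genes past 4-fold were minor forms of the enzymes. GND2, a 6-phosphogluconate dehydrogenase, had 459 in heat shock and 10.7 at 30 °C with rapamycin, and 516 in heat shock and 18.6 at 30 °C without. TKL2, a transketolase, had 650 in heat shock and 19.5 at 30 °C with rapamycin, and 919 in heat shock and 12.9 at 30 °C without. SOL4, a 6-phosphogluconolactonase, and NQM1, a transaldolase, had ratios of 5.04 and 4.05. The major forms lay within 2-fold, GND1 at -0.36, TKL1 at -0.77, SOL3 at -0.39 and TAL1 at 0.07. In these 4 steps 1 gene so had a ratio, not a level, far above that of its partner. With rapamycin the summed level in heat shock was 0.905-fold that at 30 °C for GND2 and GND1 and 0.783-fold for TKL2 and TKL1. It was 2.34-fold for SOL4 and SOL3 and 1.21-fold for NQM1 and TAL1. RKI1, ribose-5-phosphate ketol-isomerase, was the 1 member at least 2-fold lower, at -1.47.

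Other pairs of related genes, chosen after their values were seen, divided in the same manner. HXK1 had a ratio of 3.36 and HXK2 0.26. CYC7, the minor form of cytochrome c, had 3.50 and CYC1 -0.39. RTN2, a reticulon, had 4.404 and RTN1 0.06. In glycerol synthesis GPP2 had 1.86 and GPP1 -1.09, on opposite sides of 2-fold. Some pairs did not divide, as with NTH1 at 2.29 and NTH2 at 2.27, and CIT2 at 2.85 and CIT1 at 2.65. No 50-base window was shared within any of these pairs or those of the pentose phosphate pathway.

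**Figure D1:**
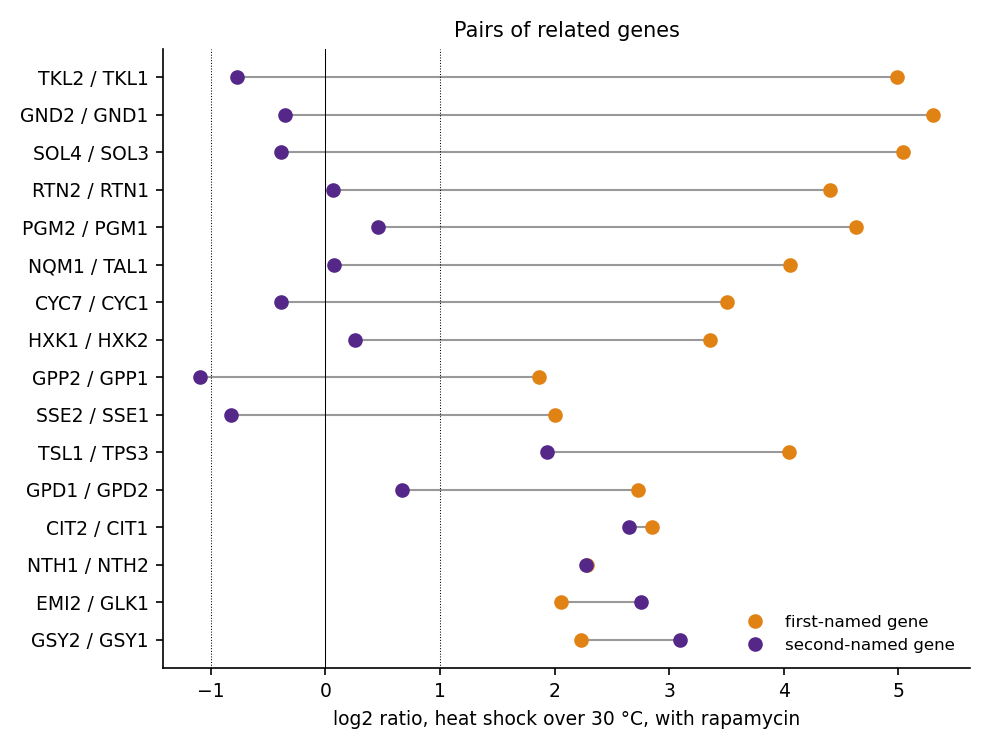
Log2 ratio of heat shock over 30 °C with rapamycin (x axis) for 16 pairs of related genes (rows), with the first-named gene in orange and the second-named in purple; dotted lines mark 2-fold. The widest gaps join TKL2, GND2 and SOL4, near a ratio of 5, to partners with ratios between -0.77 and -0.36, while the bottom 4 rows show pairs whose genes were both at least 4-fold higher.

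Most genes of small protective proteins were higher, and genes of oxidant defence were higher in part. Of 17 hydrophilin and other small stress protein genes 15 were at least 2-fold higher and 1 lower, with a median of 2.41. HSP12, a membrane-protecting protein, had 3913 in heat shock and 237 at 30 °C with rapamycin, and 7286 in heat shock and 137 at 30 °C without. It was 16.4-fold higher with rapamycin (14.6 to 18.7) and 52.7-fold higher without, from a 30 °C level that was itself higher with the drug. DDR2 had a ratio of 4.73 and STF2 4.09. Of 13 catalase, dismutase and peroxidase genes 7 were at least 2-fold higher and none lower, among them the peroxidases GPX1 at 3.91 and TSA2 at 2.58. Of 22 genes of the thioredoxin and glutathione system 4 were higher and 1 lower, with a median of 0.41, where 18.3% and 14.6% of all features were higher and lower. Of 23 aldehyde and aldo-keto reductase and dehydrogenase genes 13 were higher and 1, ADH4, lower. ALD3, an aldehyde dehydrogenase whose neighbour ALD2 has 40.4% of its 50-base windows in common with it, had a ratio of 4.88 and BDH2 5.02.

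Membrane and organelle genes were higher in part. Of 23 plasma membrane and eisosome genes 11 were at least 2-fold higher and 1 lower, where 18.3% and 14.6% of all features were. FMP45, an eisosome-associated protein, was 34.9-fold higher (26.3 to 50.1), while its relative SUR7 had 232 in heat shock and 530 at 30 °C, a ratio of -1.19. Of 22 citric acid cycle genes 10 were higher and 2 lower, led by MDH2, cytosolic malate dehydrogenase, at 3.19. MAE1, the malic enzyme, stood lowest there at -2.12. In the respiratory chain 13 of 38 were higher and none lower, with NDI1, the internal NADH dehydrogenase, at 2.20.

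Autophagy delivers cell contents to the vacuole and is held back by TORC1, the target of rapamycin. Of 35 autophagy genes 19 were at least 2-fold higher in heat shock with rapamycin and none lower, with a median of 1.17. Of all features 18.3% were higher and 14.6% lower. Without rapamycin 24 of the 35 passed 2-fold upwards, at a median of 1.39, where 19.8% of all features did. For 7 of the 35 the ratio with rapamycin was at least 2-fold below that without, against 8.29% of all features. For 1 it was at least 2-fold above, against 9.25%. On library totals these were 2 below and 9 above, against 2.32% and 43.8% of all features. ATG39, a receptor for nuclear envelope autophagy, had 157 in heat shock and 9.77 at 30 °C with rapamycin, and 115 in heat shock and 15.7 at 30 °C without. ATG8, whose protein coats the autophagosome membrane, had 110 in heat shock and 24.0 at 30 °C with rapamycin, and 157 in heat shock and 12.9 at 30 °C without. Both stood higher in heat shock in either arm, ATG39 by 14.6-fold (8.72 to 32.7) and ATG8 by 4.42-fold (2.98 to 7.23) with rapamycin. The lowest member was ATG16, with 12 reads in heat shock and 23 at 30 °C, at a ratio of -0.77.

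Genes of the signalling that governs the stress response differed as well. Of 24 genes of the Ras and protein kinase A pathway 12 were at least 2-fold higher and 3 lower, where 18.3% and 14.6% of all features were. YAK1, a kinase that opposes protein kinase A, had 905 in heat shock and 117 at 30 °C with rapamycin, and 831 in heat shock and 176 at 30 °C without. It was 7.66-fold higher with rapamycin (6.43 to 9.33). The GTPase gene RAS2 was 4.34-fold higher (3.84 to 4.94). RAS1 was 3.41-fold lower (2.40 to 5.14), so the pair of Ras genes lay on opposite sides. SCH9, a kinase directly under TORC1, had 148 in heat shock and 394 at 30 °C with rapamycin, and 121 in heat shock and 422 at 30 °C without.

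Among 47 stress transcription factor genes 19 were at least 2-fold higher and 2 lower with rapamycin, and 12 were higher and 9 lower without. Of all features 18.3% were higher and 14.6% lower with rapamycin, and 19.8% were higher and 19.3% lower without. For 11 of the 47 the ratio was at least 2-fold above that without rapamycin, where 9.25% of all features were, and for 3 it was at least 2-fold below, where 8.29% of all features were. On library totals these were 29 and 1 of the 47, against 43.8% and 2.32% of all features. CIN5, a bZIP factor, had 1334 in heat shock and 51.5 at 30 °C with rapamycin, and 810 in heat shock and 50.04 at 30 °C without. NRG2, a repressor of glucose-repressed genes, had 399 in heat shock and 32.0 at 30 °C with rapamycin, and 166 in heat shock and 45.8 at 30 °C without. HAP4, the activator of respiratory genes, had 1439 in heat shock and 195 at 30 °C with rapamycin, and 681 in heat shock and 179 at 30 °C without. For all 3 the heat shock library with rapamycin was the highest of the 4. MSN2 had a ratio of 0.83 and MSN4 0.54, short of 2-fold. TOD6, a repressor that binds the PAC element, was lower, with 21.1 in heat shock and 108 at 30 °C, a ratio of -2.30.

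**Figure D2:**
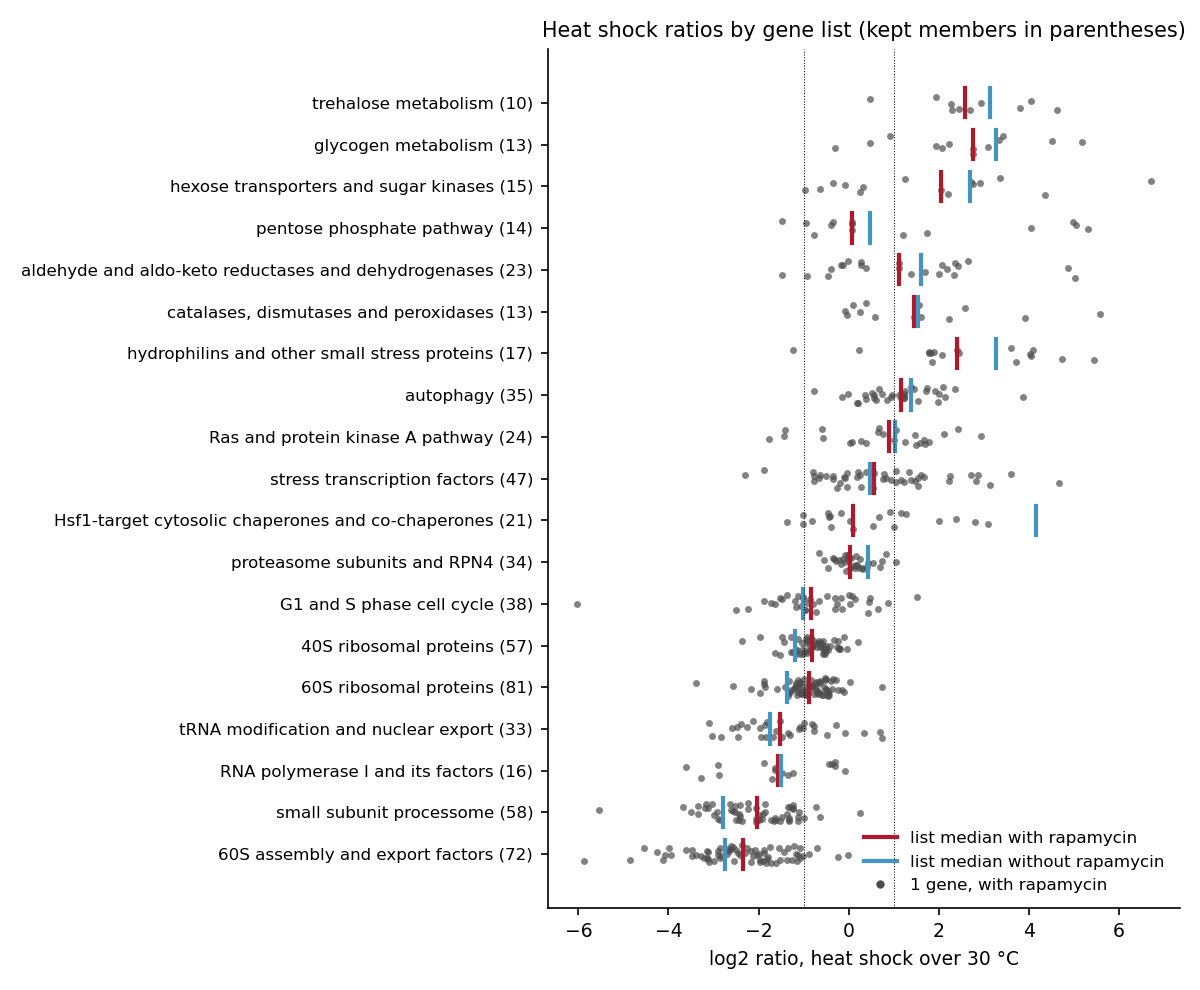
Log2 ratios of heat shock over 30 °C (x axis) for 19 gene lists (rows, kept members in parentheses), where each grey point is 1 gene with rapamycin, the red bar the list median with rapamycin and the blue bar the list median without; dotted lines mark 2-fold. The Hsf1-target list has its red bar at 0.09 and its blue bar at 4.16, and in the other 18 lists shown the bars lie within 1 unit of each other.

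Chaperone genes ascribed to Hsf1 were mostly within 2-fold. The list of 21 cytosolic chaperones and co-chaperones ascribed to Hsf1 had a median ratio of 0.09 with rapamycin and of 4.16 without. With rapamycin 6 genes passed 2-fold upwards and 3 downwards, where 18.3% and 14.6% of all features did. Without rapamycin 21 of 21 passed 2-fold upwards, where 19.8% of all features did. Every one of the 21 had a ratio at least 2-fold below its own ratio without rapamycin, where 8.29% of all features did. On library totals 19 of the 21 did, against 2.32% of all features, and all 21 ratios were still below those without. The members were chosen with earlier results of these data known, so these counts are a description and not a test. The list took 1.14% of protein-coding reads in heat shock and 0.488% at 30 °C with rapamycin, and 15.0% in heat shock and 1.35% at 30 °C without.

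HSP104, the disaggregase, had 7314 in heat shock and 1046 at 30 °C with rapamycin, and 54770 in heat shock and 1473 at 30 °C without. HSP42, a small heat shock protein, had 1839 in heat shock and 213 at 30 °C with rapamycin, and 12666 in heat shock and 169 at 30 °C without. Both were higher in heat shock in either arm, and highest without the drug. HSP42 was 8.59-fold higher with rapamycin (7.54 to 9.91) and HSP104 6.99-fold (6.58 to 7.44). The others past 2-fold were CUR1, a protein-sorting factor, at 2.38, SSE2, a nucleotide exchange factor, at 2.01, SSA1, an Hsp70, at 1.27, and MBF1, a coactivator, at 1.16. SSA1 shares 57.9% of 50-base windows with SSA2, which had a ratio of -0.17. HSP82, an Hsp90, had 846 in heat shock and 424 at 30 °C, just short of 2-fold.

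SSA4, a heat-inducible Hsp70, had 402 in heat shock and 525 at 30 °C with rapamycin, and 42107 in heat shock and 169 at 30 °C without. It stood high in 1 library of the 4, and with rapamycin it was 1.31-fold lower (1.15 to 1.49). STI1, which links Hsp70 to Hsp90, had 362 in heat shock and 355 at 30 °C with rapamycin, and 13478 in heat shock and 783 at 30 °C without. SIS1, an essential Hsp40, was 1.60-fold higher with rapamycin (1.36 to 1.89) and 23.3-fold higher without.

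Within the list, YDJ1, BTN2 and FES1 were lower by 2-fold or more with rapamycin. YDJ1, the major Hsp40, had 149 in heat shock and 389 at 30 °C with rapamycin, and 3919 in heat shock and 902 at 30 °C without. BTN2, a sorting factor, had 89.3 in heat shock and 182 at 30 °C with rapamycin, and 17462 in heat shock and 110 at 30 °C without. For both, the heat shock library with rapamycin was the lowest of the 4 and the one without the highest. On library totals none of the list's genes was at least 2-fold lower and 9 were at least 2-fold higher. The largest difference between the arms outside chaperones was in ATG41, an autophagy gene, with 42.3 in heat shock and 37.3 at 30 °C with rapamycin, and 2225 in heat shock and 11.4 at 30 °C without. LST8, a TORC1 subunit, had 74.0 in heat shock and 94.2 at 30 °C with rapamycin, and 3625 in heat shock and 87.2 at 30 °C without. ZPR1, a folding factor of elongation factor 1A, was 5.57-fold lower with rapamycin (4.38 to 7.35) and 12.6-fold higher without.

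Genes ascribed to both Hsf1 and Msn2/4 lay in between only in the difference of the arms. Their median difference of ratios, with minus without rapamycin, was -2.36, against -3.17 for the Hsf1-target list and -0.29 for trehalose metabolism. These lists overlap, since PGM2, at a ratio of 4.63, was the highest member both here and in the trehalose list. All 7 genes ascribed to both were at least 2-fold higher with rapamycin, with a median of 3.69 against 5.72 without. For 5 of them the ratio with rapamycin was at least 2-fold below that without, where 8.29% of all features were. HSP26, a small heat shock protein, had 2149 in heat shock and 166 at 30 °C with rapamycin, and 12044 in heat shock and 45.8 at 30 °C without. TMA10 had 349 in heat shock and 101 at 30 °C with rapamycin, and 5724 in heat shock and 21.45 at 30 °C without. Both were higher in heat shock in either arm, HSP26 by 12.9-fold (11.1 to 15.1) and TMA10 by 3.42-fold (2.78 to 4.29) with rapamycin. In mitochondria HSP78, the disaggregase, was 7.53-fold higher with rapamycin (6.70 to 8.54) and 49.9-fold higher without, and MDJ1, a J protein, 2.29-fold (1.86 to 2.85) and 10.5-fold. SSC1, the main mitochondrial Hsp70, had ratios of -0.47 with rapamycin and 1.44 without.

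**Figure D3:**
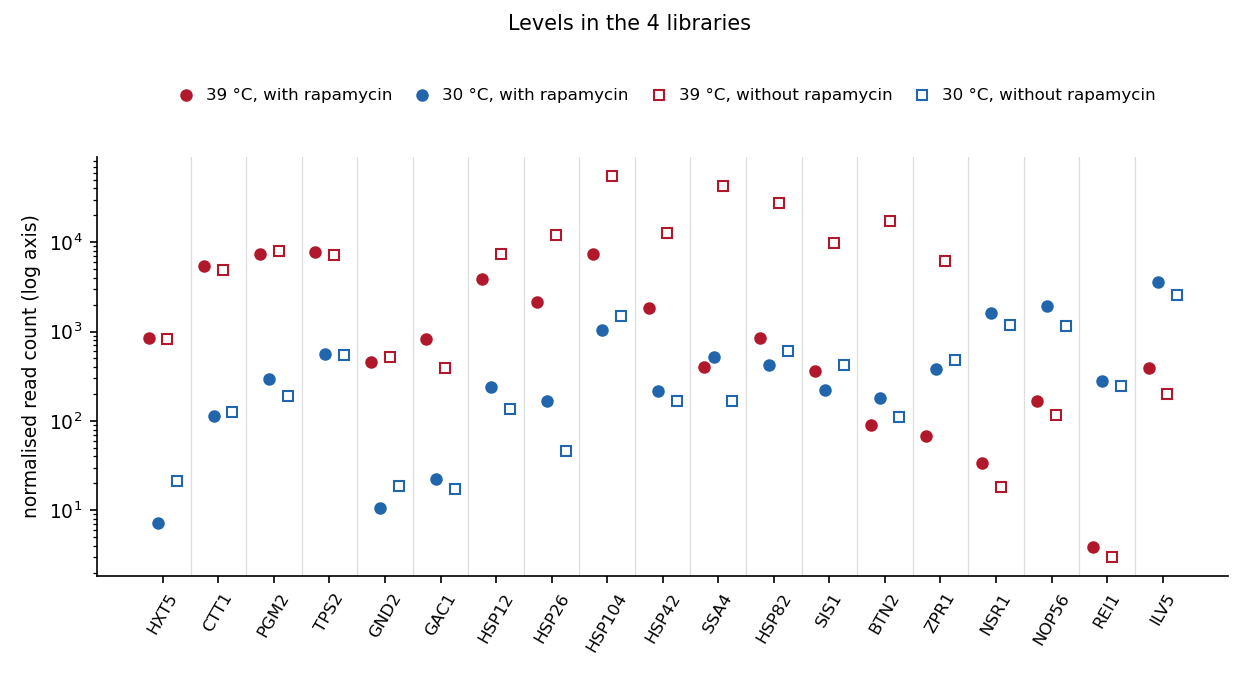
Normalised read counts (log axis) of 19 genes in the 4 libraries, filled circles with rapamycin and open squares without, red at 39 °C and blue at 30 °C; levels compare libraries within a gene, not genes with each other. From HXT5 to GAC1 the red marks of both arms lie far above the blue, from HSP12 to HSP42 both do with the open red square highest, for SSA4 to ZPR1 the open red square stands well apart from the other 3, and from NSR1 to ILV5 the red marks lie below the blue.

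HSF1 itself had 225 in heat shock and 107 at 30 °C with rapamycin, and 288 in heat shock and 157 at 30 °C without. Anchoring away acts on the protein, so this level does not check the treatment. Of 11 kept genes for rapamycin and anchor targets 2 were at least 2-fold higher and 3 lower, where 18.3% and 14.6% of all features were. The lower ones were SCH9, KOG1 of TORC1 and RPL13A, a ribosomal protein often used as the anchor, at -1.08. FPR1, whose protein binds rapamycin, was listed at 0 in all 4 libraries, as were 766 features in all. Whether the gene was absent, silent or not counted was not tested. ACT1, the actin gene, had a ratio of -0.33 with rapamycin and -0.03 without.

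Genes for building ribosomes made up the lowest group. In the small subunit processome 54 of 58 genes were lower by 2-fold or more with rapamycin and none higher, with a median of -2.04. Of 72 genes for assembly and export of the 60S subunit 68 were lower and none higher, with a median of -2.34. Without rapamycin the same lists had 57 and 68 lower, with medians of -2.79 and -2.75. Of all features 14.6% were lower with rapamycin and 19.3% without. For 18 of the 58 and 14 of the 72 the ratio with rapamycin was at least 2-fold above that without, against 9.25% of all features, and on library totals for 47 and 52, against 43.8%. NSR1, the yeast nucleolin, had 33.6 in heat shock and 1606 at 30 °C with rapamycin, and 18.0 in heat shock and 1169 at 30 °C without. NOP56, a core protein of box C/D particles, had 167 in heat shock and 1915 at 30 °C with rapamycin, and 115 in heat shock and 1158 at 30 °C without. REI1, a cytoplasmic 60S maturation factor, had 3.84 in heat shock and 282 at 30 °C with rapamycin, and 3 in heat shock and 249 at 30 °C without. All 3 stood low in both heat shock libraries and high in both at 30 °C. With rapamycin NSR1 was 46.4-fold lower (34.2 to 68.8), NOP56 11.4-fold (9.81 to 13.4) and REI1 58.6-fold (28.4 to 271, from 4 reads against 318). The pre-60S factors ALB1, ECM1, CIC1 and EBP2 had ratios of -4.86, -4.55, -4.25 and -4.13. The exceptions were few, among them RRP7 at 0.26, the export factor MTR2 at -0.02 and TIF6 at -0.23.

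The machinery around ribosome synthesis was lower with it. For RNA polymerase I 11 of 16 genes were lower by 2-fold or more and none higher, with RPA43, a subunit, at 12.1-fold lower (8.14 to 20.8). Of 33 tRNA modification and export genes 23 were lower and none higher, led by the methyltransferase TRM11 at -3.11, the dihydrouridine synthase DUS1 at -3.04 and the methyltransferase NCL1 at -2.84. Of 17 chaperones of nascent chains and ribosomal proteins 13 were lower and 1, BTT1, higher. BCP1, which escorts ribosomal protein uL14, had 26.9 in heat shock and 217 at 30 °C with rapamycin, and 24.0 in heat shock and 243 at 30 °C without. Of 47 translation factor genes 22 were lower and none higher, among them TIF4631, an eIF4G, with 385 in heat shock and 2292 at 30 °C. RNA polymerase III genes had 10 of 22 lower and 1 higher, where 14.6% and 18.3% of all features were.

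Genes of the ribosomal proteins themselves lay closer to 0. Of 57 genes of the 40S subunit 17 were at least 2-fold lower and none higher, with a median of -0.82, and of 81 of the 60S subunit 32 were lower and none higher, with a median of -0.88. Without rapamycin 42 and 60 were at least 2-fold lower, with medians of -1.20 and -1.36. Of all features 14.6% were lower and 18.3% higher with rapamycin, and 19.3% were lower without. For 14 of the 57 and 22 of the 81 the ratio with rapamycin was at least 2-fold above that without, against 9.25% of all features. On library totals these were 42 and 61, against 43.8% of all features. RPL3 had 5767 in heat shock and 10637 at 30 °C with rapamycin, and 4214 in heat shock and 7186 at 30 °C without, the heat shock library being the lower of each pair. RPL22B, the minor copy of its pair, was 10.5-fold lower (6.86 to 19.1). On library totals 6 of the 40S genes were at least 2-fold lower with rapamycin and none higher, with a median of -0.41. By the same rule 1 of the 60S genes was higher and 9 lower, with a median of -0.48. Of all 5642 features compared, 434 were lower and 1581 higher on those totals. Many of these genes are near-identical pairs, such as RPL4A and RPL4B with 72.7% of 50-base windows in common, and their counts are uncertain. The share of tRNA reads moved with the groups as given above, and its part in these ratios was not tested.

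Cell cycle genes were lower in part. Of 38 genes of G1 and S phase 15 were at least 2-fold lower and 1 higher, where 14.6% and 18.3% of all features were. PCL1, a G1 cyclin, had 1 read in heat shock and 144 at 30 °C with rapamycin, and was 65.8-fold lower with an interval of 23.5 to 5295. CLN2, a G1 cyclin, had 29.8 in heat shock and 145 at 30 °C with rapamycin, and 16.5 in heat shock and 154 at 30 °C without. CLN3, the most upstream G1 cyclin, went the other way, with 222 in heat shock and 76.4 at 30 °C with rapamycin, and 81.0 in heat shock and 157 at 30 °C without. It was 2.88-fold higher with rapamycin (2.26 to 3.77) and 1.93-fold lower without. FAR1, an inhibitor of G1 cyclin kinase, was 22.02-fold lower (13.9 to 43.6). In metabolism ILV5, of branched-chain amino acid synthesis, had 391 in heat shock and 3559 at 30 °C with rapamycin, the lowest ratio of its 54-gene list at -3.18.

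Several of the lowest ratios rested on the 30 °C library with rapamycin. YNL143C had 3179 in heat shock and 99117 at 30 °C with rapamycin, and 2213 in heat shock and 1355 at 30 °C without. Its longest run of A or of T was 32 bases, against a median of 6 over kept protein-coding genes. Whether this run bears on its counts was not tested. YKR040C and YHR095W had ratios of -4.91 and -4.58 with rapamycin and 0.00 and 0.00 without. A ratio of 0.00 also arises where neither library held reads, and a high value in 1 library can carry a feature past the filter. All 3 stood high only in the 30 °C library with rapamycin. Among features past 2-fold with rapamycin, 300 higher and 191 lower ones were within 2-fold without, which is 29.0% and 23.2% of each group. In 287 of the 300 and 183 of the 191 the counting interval lay above 1. The highest of the 300 was VLD1, with 46 reads in heat shock and 1 at 30 °C, a read ratio with an interval of 8.49 to 2007. YLR162W had 117 in heat shock and 9.77 at 30 °C with rapamycin, and 24.0 in heat shock and 24.3 at 30 °C without.

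**Figure D4:**
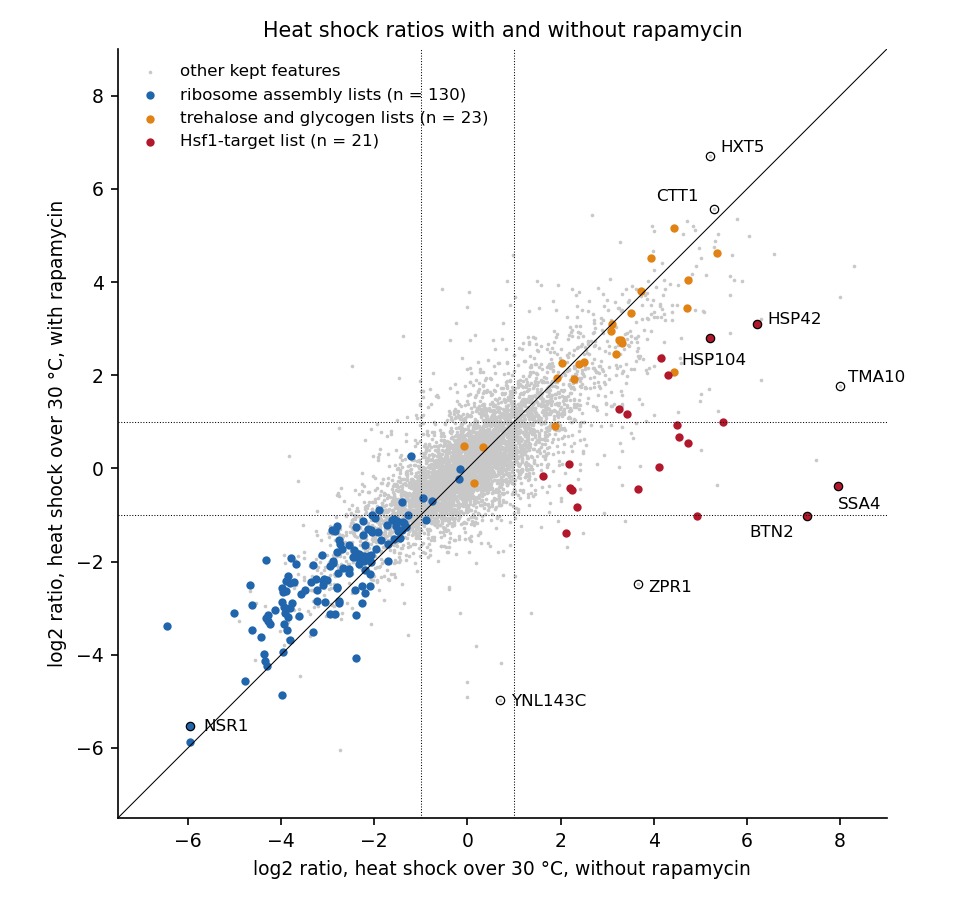
Log2 heat shock ratio with rapamycin (y axis) against that without (x axis) for 5642 features, with the ribosome assembly lists in blue, the trehalose and glycogen lists in orange and the Hsf1-target list in red; dotted lines mark 2-fold and the diagonal equal ratios. Most blue points lie above the diagonal, 51 of 58 for the processome and 61 of 72 for the 60S factors, whereas the 21 red points all lie below it, with SSA4 and BTN2 under 0 on the y axis and above 7 on the x axis.

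Of the 1344 features past 2-fold in the same direction in both arms, 936 had the smaller ratio with rapamycin, 457 of the 723 higher ones and 479 of the 621 lower ones. The SD of all ratios was 1.23 with rapamycin and 1.46 without. Dividing by library totals would shift every ratio with rapamycin upwards and every one without downwards, so these 2 counts hold for the deposited normalisation.

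Promoter elements were counted on both strands in the 500 bases before the start of the 5431 kept protein-coding genes. The motifs were counted separately, also where matches overlapped. AGGGG occurred in 71.5% of the 337 genes past 4-fold upwards with rapamycin and in 19.8% of the 197 past 4-fold downwards, against 34.5% of all. The share of genes at least 4-fold higher was 2.70% with no copy, 7.96% with 1, 21.9% with 2 and 49.1% with 3 or more, and the median ratio over the same classes was -0.15, 0.20, 0.77 and 1.90. Without rapamycin AGGGG occurred in 70.8% of genes at least 4-fold higher. Of 23 trehalose and glycogen genes 17 held it and 15 held 2 or more copies.

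GATGAG occurred in 70.6% of promoters of genes past 4-fold downwards and in 22.3% of those past 4-fold upwards, against 28.3% of all. The share of genes at least 4-fold lower was 1.49% with no copy, 6.17% with 1, 16.5% with 2 and 37.3% with 3 or more. AAAATTTT occurred in 52.3% of those past 4-fold downwards, against 13.1% of all. The 130 genes of the 2 ribosome assembly lists held GATGAG in 86.9% and AAAATTTT in 77.7%, and the 138 ribosomal protein genes held them in 22.5% and 13.0%, close to all promoters. TGACTC, the core of the Gcn4 element, occurred in 11.9% of those past 4-fold upwards and 12.7% of those past 4-fold downwards, against 13.1% of all.

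**Figure D5:**
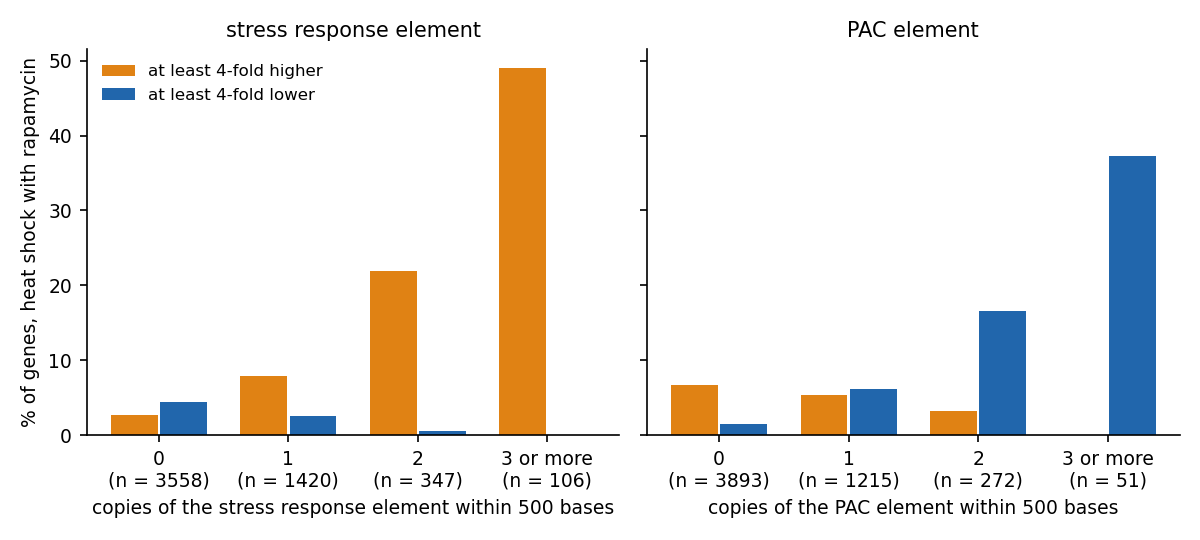
Percent of protein-coding genes at least 4-fold higher (orange) or at least 4-fold lower (blue) in heat shock with rapamycin, by the number of copies of the stress response element (left) or PAC element (right) within 500 bases of the start; gene numbers stand under each class. The orange bars climb to 49.1% over the left panel and the blue bars to 37.3% over the right.

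The heat shock element, sought here as 3 units in a fixed spacing, occurred in 3.56% of genes past 4-fold upwards with rapamycin and 6.37% of those past 4-fold upwards without, against 1.55% of all promoters. The ratio was at least 4-fold below that without rapamycin for 100 features, 1.77% of all, and of the 80 protein-coding genes among them 22.5% held it. In the Hsf1-target list 10 of 21 genes held it. The list also divided by AGGGG. Of the 8 genes that held it, HSP42, HSP104, SSE2, SSA1, MBF1, HSP82, APJ1 and SSA4, 5 passed 2-fold upwards with rapamycin and none downwards, with a median of 1.22. Of the 13 that did not, 1, CUR1, was higher and 3 were lower, with a median of -0.42. SSA4, with 3 copies, had a ratio of -0.39, so the element and the ratio did not go together in every gene. Without rapamycin the medians of these 8 and 13 genes were 4.98 and 3.65. The split was made after the values were seen, and a match to a motif is a description of the sequence, not a bound site.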

How the data were processed

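RNA was measured by sequencing of 4 libraries, 1 per group, of total RNA extracted with phenol and chloroform, per the labels. The submitters' processing notes name TopHat, HTSeq and sacCer3, with no versions. Nothing states how strand was handled. The deposited signal values are read counts per feature that the authors divided by 1 factor per library, as read from the values: 100% of nonzero values were a whole number of steps, within 0.0055. A single read was worth 0.961 in heat shock and 0.888 at 30 °C with rapamycin, and 1.50 in heat shock and 1.43 at 30 °C without.

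These values were not rescaled. Features whose 4-library mean reached 5 were kept, and ratios were taken on log2(value + 1), which understates folds of low features. A fold is 2 to the power of that ratio. Its interval is exact (conditional binomial) on the recovered reads and uses no pseudocount. A feature without reads was set to a floor of 3 reads per library, 2.88 in heat shock and 2.67 at 30 °C with rapamycin. Names, biotypes and coordinates came from RefSeq R64, in which 6162 of 7126 features matched. Overlapping, antisense and near-identical genes can share reads. No column of sample values was left unused (0).

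Described were 54 gene lists by counts and medians. Members and lists were chosen with earlier results of these data known. The genes named were the 12 highest and 12 lowest ratios, the 4 highest and 3 lowest of each list, the 10 highest and 10 lowest among features within 2-fold without rapamycin, the 10 furthest above and below in the difference of ratios, all members of 2 lists and 19 fixed genes. Pairs of related genes and promoters shown were chosen after values were seen. Pairs were compared by 50-base windows of the first gene found in the second.

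Since each group is 1 library, variation between cultures is unknown. Other settings were pseudocounts of 0.25 and 5, a mean of at least 20, no filter, a filter on the 2 rapamycin libraries, division by library totals, recomputed median-of-ratios factors and protein-coding features alone. Added after seeing the data were protein-coding totals as the divisor and a count test of heat in edgeR 4.0.16 (R 4.3.3) on the recovered reads, an additive model of heat and rapamycin with 1 residual degree of freedom, which compares these libraries and not the conditions. The code ran in Python 3.11.15 with numpy 2.4.6, pandas 2.3.3 and scipy 1.17.1 and was tested on simulated data.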

Additional observations from a re-analysis of the deposited data

Results flagged for a closer look

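The genes below had heat shock ratios of at least 2-fold in opposite directions with and without rapamycin, each from 1 library a side, and the difference was not tested. They are the named genes among 24 such features. Lower with rapamycin and higher without were BTN2, with a log2 difference of ratios (with minus without rapamycin) of -8.32, ZPR1 with -6.13, FES1 with -5.95 and YDJ1 with -3.50. Of these, FES1 and BTN2 lay close to the 2-fold limit with rapamycin, at ratios of -1.01 and -1.02. Higher with rapamycin and lower without were YHR175W-A with 4.67, FYV5 with 4.21 and YHR180W with 3.39, which had 8, 13 and 10 reads in heat shock and 1, 1 and 2 at 30 °C with rapamycin, so that counting error alone leaves their folds wide.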

How the results depend on the processing

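No paired analysis was possible because the labels carry no replicate numbers and each group held 1 library, so no library could be left out. The counts at least 2-fold higher, 1034, and lower, 825, were 1581 and 434 on library totals, a setting that also moved the 205 features at least 4-fold lower to 125. Ratios at least 2-fold above those without rapamycin numbered 522, and 468 were at least 2-fold below. On library totals these were 2473 and 131, and on protein-coding totals 1582 and 181. Library totals moved the median ratio to 0.40 with rapamycin and -0.42 without, and protein-coding totals to 0.24 and -0.30. Under every other setting run, these 6 counts stayed within 1.5 times. The count test in edgeR took heat over both arms, with and without rapamycin. Its counts are therefore not a check on those with rapamycin alone. With 1 library per group, its 1 residual degree of freedom is the difference of the heat effect between the arms. Its p-values therefore do not measure spread between cultures. It called 1140 features higher and 1090 lower in heat shock at an adjusted p of 0.05 over 5642, and 2680 had an unadjusted p under 0.05. No list median past 2-fold and no named gene past 2-fold changed sign under any setting, but a shift of 0.40 could not reverse a ratio past 2-fold. Some list medians short of 2-fold did change sign on library totals, such as sterol and fatty acid synthesis, from -0.34 to 0.07. On library totals 38 named genes past 2-fold were no longer so and 29 others became so, of 422. Features with few reads are the least certain: of 146 with under 20 reads over the 2 rapamycin libraries, 57.5% lay past 2-fold, against 33.1% of 1485 with 500 or more.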

Other observations

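Drug pump and DNA damage genes held a larger share of higher members than all features did in heat shock with rapamycin. Of 24 genes of drug efflux and detoxification pumps 7 were at least 2-fold higher and 1 lower, where 18.3% and 14.6% of all features were. TPO4, a polyamine exporter, had 3133 in heat shock and 202 at 30 °C with rapamycin, and 2486 in heat shock and 120 at 30 °C without. RSB1, a sphingoid base transporter, had a ratio of 3.70. Of 22 genes of the DNA damage response 7 were higher and 1 lower, among them RNR3, a minor large subunit of ribonucleotide reductase, at 2.26, while the major subunit gene RNR1 was lower, with 309 in heat shock and 1139 at 30 °C with rapamycin.

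Proteasome, histone and sphingolipid genes had medians nearer 0. The proteasome had 1 of 34 genes at least 2-fold higher with rapamycin, RPN4, its activator, at 1.05, and none lower, with a median of 0.04. Without rapamycin 6 were higher. Of all features 18.3% were higher and 14.6% lower with rapamycin, and 19.8% were higher without. Of 10 histone genes none passed 2-fold in either direction, with a median of 0.24. Among 32 genes of sphingolipid and phospholipid synthesis 5 were higher and 3 lower, no larger a share than of all features, with a median of -0.09. The ceramidase genes YPC1, at 2.91, and YDC1, at 1.74, were 2 of the 5.

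Transfer RNA and mitosis genes had lower medians. Of 299 tRNA features only 29 passed the filter, and the counts cover these alone. With rapamycin 14 of the 29 were at least 2-fold lower and none higher, with a median ratio of -0.98. Without rapamycin 5 were higher and none lower, with a median of 0.44. Of all features 14.6% were lower and 18.3% higher with rapamycin, and 19.3% were lower and 19.8% higher without. Of 80 small nucleolar and nuclear RNA features 2 were higher and 1 lower with rapamycin, and 35 were higher without. In mitosis and early G1, 14 of 35 genes were lower and none higher, with a median of -0.88 and SCW11, a daughter-cell wall enzyme, at -2.91.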
